A study of Mus musculus with 46 samples.

Results

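Cd14, 8 Toll-like receptors (Tlr1, Tlr2, Tlr4, Tlr6, Tlr3, Tlr7, Tlr9 and Tlr13) and their shared adaptor Myd88 were followed across 46 RNA-seq libraries of sorted mouse microglia, the resident macrophages of the brain. The 10 genes were picked by their symbols, out of 24824 gene symbols in 4 expression tables, and all 10 have a row in every table. Microglia that lack Dicer, the enzyme that cuts precursor hairpins into mature microRNAs, were compared with control microglia at rest, after lipopolysaccharide (LPS) and at birth, and control microglia were also followed from embryo to adult.

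Adult Dicer-deficient microglia came from Cx3cr1CreER:Dicerfl/- mice and their controls from Cx3cr1CreER:Dicer+/- mice of 10 to 12 weeks. The controls therefore carried the inducible Cre at Cx3cr1 and 1 null Dicer allele too, and every Dicer-deficient adult also carried that null allele. The first table holds 3 Dicer-deficient and 4 control libraries of untreated adult brain. The second holds total brain 6 h after an intraperitoneal LPS dose of 1 mg/kg (4 Dicer-deficient and 4 control libraries) and at steady state, where the labels also name PBS (3 and 3). The third holds hippocampus after the same LPS exposure (2 and 2) and at steady state (3 Dicer-deficient and 2 control). The fourth holds newborn (P0) Cx3cr1Cre:Dicerfl/fl microglia (2 libraries) and Dicerfl/fl controls without Cre at embryonic day 14 (E14, n = 4), P0 (n = 5) and adult age of 6 to 8 weeks (n = 5). Adult cells were gated as CD45intCD11b+F4/80+Ly6C-Ly6G-, and E14 cells as CD45+ rather than CD45int. The Cre is driven from the locus of Cx3cr1, which other macrophages also use, and the newborn design has no Cre-bearing control. The series text gives the same genotype for both adult arms and 3 libraries for the LPS-treated Dicer-deficient total brain, where the sample labels give 2 genotypes and 4 libraries; the sample labels were followed.

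Toll-like receptors recognise microbial molecules through a leucine-rich repeat ectodomain and signal through a cytoplasmic TIR domain. At the cell surface, TLR4 with its partner MD-2 (Ly96) detects LPS that CD14 hands over, while TLR2 pairs with TLR1 or TLR6 to detect lipopeptides. Inside endosomes, TLR3 senses double-stranded RNA, TLR7 single-stranded RNA, TLR9 unmethylated CpG DNA and mouse TLR13 a bacterial ribosomal RNA sequence. All of these except TLR3 signal through MYD88, which nucleates IRAK kinases and leads to NF-kB, and TLR4 also uses a second adaptor, TRIF. In the brain these receptors are found mainly on microglia and other macrophages.

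Promoter sequences are shown for Tlr1, Tlr2, Tlr6 and Myd88, because these 4 genes rose together with Cd14 after LPS in Dicer-deficient total-brain microglia. Tlr13, also called there, is left out because its call rested on 1 library. They are the 250 bases before the first listed RefSeq start (build GRCm38.p6, all on the minus strand), at chr5:64933559-64933808, chr3:83841609-83841858, chr5:64959167-64959416 and chr9:119340019-119340268, printed 5′ to 3′ on the gene's strand. Capitals mark matches on either strand to 3 motifs: GGGANNTTCC (kappaB type), GAAANNGAAA (IRF type) and GAGGAA (the core bound by PU.1).
Tlr1: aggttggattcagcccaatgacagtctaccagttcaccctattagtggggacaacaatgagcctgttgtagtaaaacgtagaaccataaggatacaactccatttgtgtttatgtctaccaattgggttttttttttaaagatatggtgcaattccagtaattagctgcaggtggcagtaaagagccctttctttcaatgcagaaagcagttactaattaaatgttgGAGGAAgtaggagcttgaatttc
Tlr2: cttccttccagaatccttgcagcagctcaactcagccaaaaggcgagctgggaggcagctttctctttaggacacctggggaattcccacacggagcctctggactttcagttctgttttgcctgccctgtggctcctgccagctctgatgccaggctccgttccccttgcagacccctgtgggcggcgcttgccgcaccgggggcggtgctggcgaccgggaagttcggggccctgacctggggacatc
Tlr6: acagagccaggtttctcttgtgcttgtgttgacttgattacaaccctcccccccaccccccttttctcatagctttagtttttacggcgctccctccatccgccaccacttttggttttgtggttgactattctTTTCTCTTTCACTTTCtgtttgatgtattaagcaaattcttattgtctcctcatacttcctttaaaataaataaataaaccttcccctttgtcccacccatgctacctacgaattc
Myd88: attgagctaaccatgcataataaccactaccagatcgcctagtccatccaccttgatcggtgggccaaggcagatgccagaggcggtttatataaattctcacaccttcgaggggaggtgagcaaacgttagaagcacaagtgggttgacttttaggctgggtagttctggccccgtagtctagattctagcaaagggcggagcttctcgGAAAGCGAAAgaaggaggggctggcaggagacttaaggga
The Tlr6 promoter held 2 overlapping IRF-type matches, 116 to 107 and 110 to 101 bases before the start, and the Myd88 promoter held 1, 40 to 31 bases before it. The Tlr1 promoter held the PU.1 core 23 to 18 bases before the start, and the Tlr2 window held none of the 3 motifs as spelled here. The Tlr2 window does hold gggaattccc, which the kappaB-type letters used here do not cover, and wider spellings were not searched. Of the 7 members with a promoter in the RefSeq table (9 start sites), 2 held the IRF-type motif, 1 (Tlr3) the kappaB type and 3 (Tlr1, Tlr9 and Tlr13) the PU.1 core. The windows before the second listed starts of Tlr1 and Tlr6 held none of the 3 motifs. Among 32851 promoters of the same length, 3.0% held the IRF-type motif, 1.2% the kappaB type and 23.3% the PU.1 core. These shares count single start sites, whereas the members are counted as genes. A match is a run of letters and not a binding site, and Tlr4, Tlr7 and Cd14 were not searched.

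Since Dicer makes mature microRNAs, the 3′ untranslated regions were searched for perfect matches to the seeds (bases 2 to 8) of 4 microRNAs known from macrophages. The microRNAs are printed with the seed in capitals.
let-7a-5p: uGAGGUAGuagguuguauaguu
miR-146a-5p: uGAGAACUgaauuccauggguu
miR-155-5p: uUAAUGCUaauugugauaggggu
miR-223-3p: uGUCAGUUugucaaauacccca
Each of the 4 has its own seed. Let-7 matches were found in 2 of the 10 members, Tlr6 and Myd88, which are also the 2 members called higher in Dicer-deficient total brain after LPS. That Myd88 call was lost in 10 of 16 alternatives. Neither gene was called in any other Dicer comparison, and Tlr6 was not tested in untreated adult brain. In total brain at steady state Tlr6 differed by 0.18 ± 0.29 and Myd88 by -0.29 ± 0.22. The Tlr6 match lies in the 3′ UTR at chr5:64952245-64952251 and the Myd88 match at chr9:119336472-119336478 (GRCm38, minus strand), and both are shown in capitals within 30 bases.
Tlr6 site: caagaaagaaggCTACCTCaactgtatgtg
Myd88 site: ctacatgagagcCTACCTCccccatcccct
Of 21082 genes with a 3′ UTR, 9.0% held a let-7 match. MiR-223 matches were found in Tlr3 and Tlr13, against 8.2% of genes, and miR-146a and miR-155 matches in none of the 10, against 11.1% and 8.3% of genes. No microRNA was measured in these libraries, and whether these sites are used was not tested.

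The values are the submitters' normalised counts, in which each library was divided by 1 factor, so levels were compared across libraries of a table and not between genes. Whole reads could be recovered from them, and libraries held 898451 to 4573063 reads. Differences are given on the log2(value + 1) scale from limma with standard error and Benjamini-Hochberg adjusted p over all genes tested, and a gene is called changed at an adjusted p under 0.05. The labels do not say that libraries are separate animals, and the tests therefore speak only of the spread among libraries, which may be technical. All 10 microglial markers (among them Cx3cr1) were detected in every group. Cx3cr1 varied widely within some groups, from 490.4 to 8686.8 in the adult controls of the fourth table. In steady-state control hippocampus it was 687.6 and 7138.7. What lies behind this spread was not tested. Dicer1 itself was called in none of the comparisons. It averaged 85.9 ± 18.8 in Dicer-deficient and 119.9 ± 16.7 in control total brain at steady state (SD, n = 3 each), a difference of -0.49 ± 0.28 (adjusted p = 0.427). In untreated adult brain Dicer1 averaged 137.0 ± 17.96 in Dicer-deficient and 118.9 ± 24.07 in control libraries (0.21 ± 0.29, adjusted p = 0.764). In newborns it averaged 140.2 ± 77.44 in the 2 Dicer-deficient libraries and 76.4 ± 12.95 over the 5 controls (0.83 ± 0.38 against 3 of them, adjusted p = 0.254). It differed by -0.91 ± 0.66 in hippocampus at steady state, and after LPS by 0.01 ± 0.24 in total brain and 0.09 ± 0.73 in hippocampus. Dicer1 counts thus do not separate the genotypes. The reads come from oligo(dT) capture, so a deletion inside the gene need not lower this count. In the table of untreated adult brain, 7110 of 19762 rows are listed at 0 in every library, abundant ribosomal protein genes such as Rplp1 and Rpl8 among them, and Tlr6 is one of these rows, so Tlr6 could not be described there. Transcripts of Tlr1 and Tlr6, neighbours on chromosome 5, share 454 words of 50 bases, 15.26% of those of Tlr1 and 12.51% of those of Tlr6, so reads from either gene may have been assigned to the other or lost. Myd88 overlaps Slc22a14 and Acaa1a, and Tlr3 overlaps Gm45542, and the strand setting of the counting is not given in the sources used here.

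LPS raised Cd14, the LPS-binding co-receptor, in both genotypes of total-brain microglia. Normalised counts of Cd14 were 6458.5, 7582.3, 8603.6 and 9380.2 after LPS, against 1519.4, 1878.2 and 1350.6 at steady state, in Dicer-deficient libraries. In controls they were 5489.5, 5722.3, 7722.3 and 1646.0 after LPS, against 1693.4, 1381.8 and 1508.2 at steady state. The groups did not overlap in Dicer-deficient microglia, while 1 LPS-treated control (replicate 33, 1646.0) lay within the steady-state controls. The rise was 2.34 ± 0.37 in Dicer-deficient microglia (adjusted p = 0.000219, 5.05-fold) and 1.55 ± 0.37 in controls (adjusted p = 0.011, 2.94-fold). Replicate 33 weighs on the control value, which was 2.03 without it (adjusted p = 1e-06), and a fit to the 2 control groups alone left the rise just short of the threshold (adjusted p = 0.0519). That library also had the highest summed monocyte and neutrophil markers of the 4 LPS-treated controls (3985, against a median of 440.9 in that group), and a part of these cells in its values was not tested.

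The lipopeptide receptor Tlr2 also rose in both genotypes. Its normalised counts were 1096.2, 1496.3, 1284.2 and 1619.3 after LPS, against 132.1, 295.8 and 143.7 at steady state, in Dicer-deficient libraries. Control libraries had 1214.5, 1852.4, 2317.6 and 492.2 after LPS, against 241.1, 310.3 and 314.7 at steady state. Every LPS library lay above every steady-state library in both genotypes. The differences were 2.93 ± 0.39 (adjusted p = 4.9e-05) in Dicer-deficient microglia and 2.14 ± 0.39 (adjusted p = 0.00341) in controls, and the control value was 2.59 without replicate 33.

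Tlr1 and Tlr6, the 2 receptors that pair with TLR2, rose in Dicer-deficient microglia, and neither was called in controls. Tlr1 had 166.6, 344.8, 331.1 and 311.2 normalised counts after LPS, against 65.6, 82.9 and 43.8 at steady state, in Dicer-deficient libraries, a difference of 2.14 ± 0.32 (adjusted p = 0.000144). In controls Tlr1 had 180.6, 322.6, 542.5 and 255.5 after LPS, against 157.9, 185.9 and 174.6 at steady state (0.79 ± 0.32, adjusted p = 0.11). The LPS levels of Tlr1 therefore overlapped between genotypes, and it was the steady-state levels that stood apart. Tlr6 had 141.7, 211.8, 214.6 and 228.1 after LPS, against 52.1, 62.5 and 42.8 at steady state, in Dicer-deficient libraries (1.90 ± 0.27, adjusted p = 9.36e-05). Control libraries had 55.7, 81.3, 77.2 and 37.6 after LPS, against 51.1, 43.7 and 42.5 at steady state (0.39 ± 0.27, adjusted p = 0.363). For Tlr6 the steady-state levels overlapped and the LPS levels stood apart. Without control replicate 17 Tlr1 was called in controls too (1.04, adjusted p = 0.0459).

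Tlr4, the signalling receptor for LPS, moved the other way. It had 187.9, 176.2, 163.8 and 159.7 normalised counts after LPS, against 359.6, 298.6 and 475.9 at steady state, in Dicer-deficient libraries, a fall of 1.11 ± 0.24 on the log2 scale that left it at 0.464 of the steady-state level (adjusted p = 0.00215). Control libraries had 100.1, 123.7, 127.2 and 225.8 after LPS, against 187.2, 222.9 and 189.5 at steady state. Of the controls, replicate 33 again stood alone, above all 3 steady-state libraries. The control difference of -0.53 ± 0.24 was not called (adjusted p = 0.144), and without replicate 33 it was -0.77 and was called (adjusted p = 0.00537).

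The adaptor Myd88 rose in Dicer-deficient microglia, with 581.4, 591.4, 588.9 and 526.7 normalised counts after LPS, against 210.2, 229.1 and 185.6 at steady state (1.46 ± 0.20, adjusted p = 7.49e-05). Control libraries had 380.8, 375.3, 528.5 and 246.6 after LPS, against 261.0, 235.5 and 265.3 at steady state (0.54 ± 0.20, adjusted p = 0.0835). Replicate 33 was the one LPS-treated control within the steady-state range, and without it the control rise was 0.73 and was called (adjusted p = 0.00282).

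**Figure D1:**
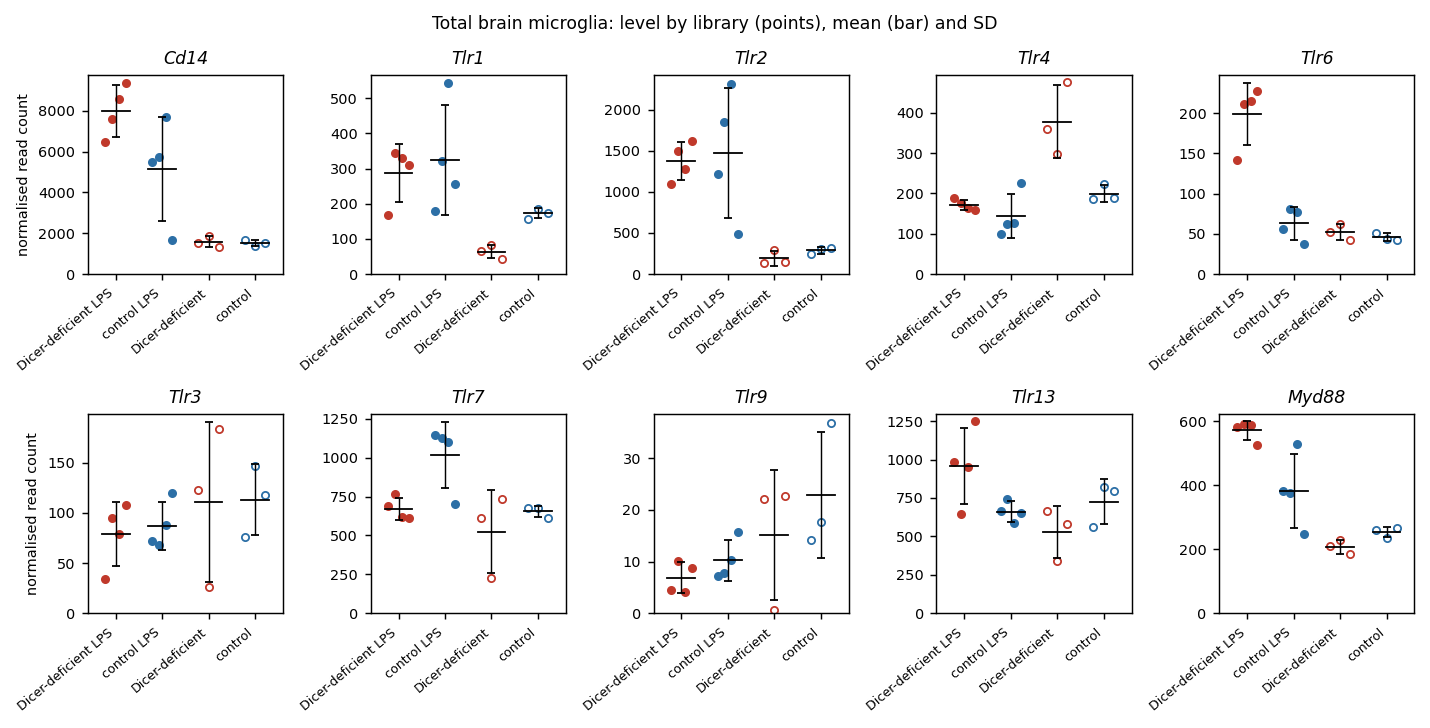
Normalised counts of the 10 genes in the 14 total-brain libraries, 1 panel per gene, with a point per library, a bar at the mean, an SD whisker and groups ordered as LPS Dicer-deficient, LPS control, steady-state Dicer-deficient and steady-state control. Cd14 and Tlr2 are higher after LPS in both genotypes apart from 1 control library for Cd14, Tlr6 stands apart in the LPS Dicer-deficient group (141.7 to 228.1), and Tlr4 is highest in the steady-state Dicer-deficient group (298.6 to 475.9).

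Among the endosomal receptors, only Tlr13 was called, and only in the Dicer-deficient genotype. Tlr13, the sensor of bacterial ribosomal RNA, had 986.0, 647.3, 954.3 and 1251.3 after LPS, against 666.2, 340.1 and 577.8 at steady state, in Dicer-deficient libraries (0.88 ± 0.24, adjusted p = 0.013). This rested on steady-state library 11b, the lowest of the 3: without it the difference was 0.59 (adjusted p = 0.0754). Controls had 667.6, 744.6, 585.1 and 649.7 after LPS, against 559.7, 821.7 and 798.3 at steady state (-0.12 ± 0.24, adjusted p = 0.786). Tlr7, the receptor for single-stranded RNA, had 610.9 to 763.4 after LPS, against 227.7 to 735.8 at steady state, in Dicer-deficient libraries (0.51 ± 0.29, adjusted p = 0.227). In controls Tlr7 had 1142.3, 1127.7, 1101.1 and 699.2 after LPS, against 675.1, 677.0 and 609.9 at steady state. Those control groups did not overlap, but the difference of 0.61 ± 0.29 was not called (adjusted p = 0.182); with Xist as a covariate, a marker of female cells, it was 0.88 and was called (adjusted p = 0.0284). Tlr7 and Tlr13 lie on the X chromosome, and Xist was high in 2 of the 14 total-brain libraries, 580.4 in the steady-state library 11b and 363.7 in LPS library 38, both Dicer-deficient. Tlr3 ranged from 26.0 to 183.7 and Tlr9 from 0.7 to 36.8 over the 14 libraries (1 to 32 reads for Tlr9), with no call. Tlr9 had 4.1 to 10.2 after LPS, against 0.7 to 22.8 at steady state, in Dicer-deficient libraries (-0.39 ± 0.73). Without library 11b, the one with 1 read, Tlr9 was called lower (-1.65, adjusted p = 0.0268).

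In Dicer-deficient total brain 6 of the 10 members rose and 1 fell, where 24.9% of all genes tested were called, and the median difference of the members was 1.17, against -0.04 over all genes. In controls 2 of the 10 rose and none fell, where 14.1% of all genes were called, and the medians were 0.47 and -0.05. The control counts depended on replicate 33. Without it 3388 genes were called over all, against 1897 with it and 3349 in Dicer-deficient microglia. Tlr4 (lower) and Myd88 (higher) were then called in controls as well. Whether the LPS response itself differed between genotypes was tested as an interaction, in which 0.171% of genes were called. None of the 10 members was called in it by limma or edgeR. At an unadjusted p under 0.05 there were 4, namely Tlr6 (1.50 ± 0.38, adjusted p = 0.119), Tlr1 (1.35 ± 0.46, adjusted p = 0.289), Tlr13 (1.00 ± 0.34, adjusted p = 0.297) and Myd88 (0.92 ± 0.29, adjusted p = 0.24), all with the more positive LPS difference in Dicer-deficient microglia. By p they ranked 117 (Tlr6), 283 (Myd88), 390 (Tlr1) and 432 (Tlr13) among 13423 genes. For all counts given here at an unadjusted p, the share of all genes under that threshold was not counted. DESeq2 on the recovered reads called 1 of the 10, Tlr6 (adjusted p = 0.0398), and the adjusted p of Tlr6 ranged from 0.0398 to 0.258 over the alternatives. Over all genes DESeq2 called 164 in this interaction, where limma called 23. The LPS and Dicer comparisons of 1 table share their libraries, so they are not separate evidence.

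Markers of other cells moved with LPS. Summed monocyte and neutrophil markers (15 genes) were 676.3 to 3847 after LPS, against 22.3 to 406.2 at steady state, in Dicer-deficient total brain, and 146.6 to 3985, against 15.1 to 43.6, in controls. Ly6g was at 0 in all 4 LPS-treated Dicer-deficient libraries. Of 14 tested, 12 of these markers rose in Dicer-deficient microglia, and 9 rose and 1 fell in controls. Summed microglial markers were 39950 to 47740 after LPS, against 84070 to 86960 at steady state, in Dicer-deficient libraries, and 39700 to 80950, against 84780 to 88620, in controls. Fewer microglia and other reasons for a lower marker sum, such as less RNA per microglial cell, cannot be told apart in bulk samples. The part of other cells in the members' changes was not tested.

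Hippocampal microglia gave a second look at LPS with fewer libraries. Cd14 had 7864.2 and 11391.8 normalised counts after LPS, against 1286.3, 1369.1 and 1626.9 at steady state, in Dicer-deficient libraries (2.74 ± 0.25, adjusted p = 5.63e-05). Control libraries had 7028.3 and 7790.4 after LPS, against 2102.7 and 1275.8 at steady state (2.17 ± 0.27, adjusted p = 0.00074). Both genotypes were thus separated fully by LPS for Cd14. Tlr2 had 1155.0 and 1420.1, against 187.1, 249.8 and 230.1, in Dicer-deficient libraries (2.53 ± 0.27, adjusted p = 0.000167), and 2074.4 and 2324.1, against 327.0 and 194.1, in controls (3.12 ± 0.29, adjusted p = 0.000141). Tlr1 had 283.2 and 265.7 after LPS, against 57.1, 64.2 and 56.7 at steady state, in Dicer-deficient libraries (2.19 ± 0.33, adjusted p = 0.00157); with Xist as a covariate this was not called (1.81, adjusted p = 0.152). In controls Tlr1 had 429.9 and 384.0, against 144.7 and 211.3 (1.21 ± 0.36, adjusted p = 0.0778). Xist was 622.2 to 692.6 in all 3 steady-state Dicer-deficient libraries and 1429.4 in 1 steady-state control, and averaged 5.53 in Dicer-deficient and 3.08 in control libraries after LPS, so that sex and LPS cannot be told apart fully here.

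The other members of the LPS response were not called in hippocampus. Tlr6 had 124.9 and 222.7 after LPS, against 16.9, 45.5 and 77.8 at steady state, in Dicer-deficient libraries (2.06 ± 0.66, adjusted p = 0.0782), and 104.4 and 89.5, against 30.2 and 40.7, in controls (1.44 ± 0.72, adjusted p = 0.333). Tlr6 was called in Dicer-deficient hippocampus without steady-state library 6 (2.54, adjusted p = 0.0419) and by DESeq2 (adjusted p = 0.0318). Tlr4 had 211.0 and 184.3, against 324.5, 499.5 and 464.2, in Dicer-deficient libraries (-1.09 ± 0.36, adjusted p = 0.0845), and 203.1 and 93.3, against 235.2 and 273.9, in controls. Myd88 had 497.0 and 581.9, against 292.8, 219.3 and 348.4, in Dicer-deficient libraries (0.93 ± 0.31, adjusted p = 0.0861), and 390.7 and 578.2, against 184.4 and 274.7, in controls (1.07 ± 0.33, adjusted p = 0.0957). Every LPS library lay above every steady-state library of its genotype for Tlr6, Myd88 and Tlr13, and below it for Tlr4. Groups this small can separate by chance, and the share of all genes that did so was not counted. Of the 10 members 3 rose in Dicer-deficient hippocampus, against 8.47% of all genes called, and 2 in controls, against 5.23%. Summed monocyte and neutrophil markers ran the other way here, 322.1 to 343.8 after LPS, against 7971 to 8172 at steady state, in Dicer-deficient libraries. In controls the sums were 41.89 to 1339 after LPS, against 529.3 to 2564 at steady state. Their part in the hippocampal changes was not tested.

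**Figure D2:**
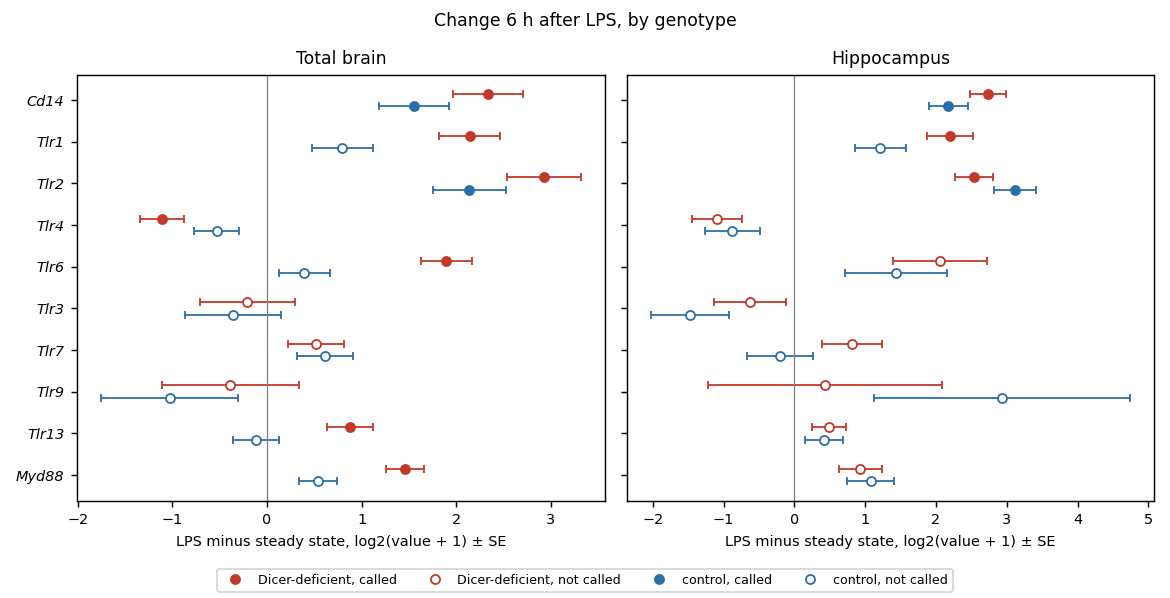
Log2(value + 1) difference, LPS minus steady state, with its standard error for each of the 10 genes in total brain (left) and hippocampus (right), Dicer-deficient microglia above controls for each gene, filled where called. Cd14 and Tlr2 are called in all 4 comparisons, Tlr1 in both Dicer-deficient ones, and Tlr4 lies below 0 throughout.

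Without LPS, Tlr1 was lower and Tlr4 higher in the Dicer-deficient libraries of all 3 adult tables, with 1 call each. In untreated adult brain Tlr1 had 72.6, 38.6 and 74.2 normalised counts in Dicer-deficient libraries, against 158.4, 127.6, 155.7 and 113.0 in controls, with no overlap. That difference of -1.20 ± 0.35 missed the threshold in limma (adjusted p = 0.0533) and passed it with edgeR (adjusted p = 0.0338) and DESeq2 (adjusted p = 0.0365). In total brain at steady state, Tlr1 had 65.6, 82.9 and 43.8 in Dicer-deficient libraries, against 157.9, 185.9 and 174.6 in controls, and fell to 0.363 of the control level (-1.46 ± 0.34, adjusted p = 0.0343). This call was narrow: edgeR gave adjusted p = 0.0739, and leaving out any 1 of the 6 libraries except 11b gave adjusted p-values of 0.0758 to 0.128. In hippocampus at steady state, Tlr1 had 57.1, 64.2 and 56.7 in Dicer-deficient libraries, against 144.7 and 211.3 in controls (-1.55 ± 0.33, adjusted p = 0.087), and DESeq2 called it (adjusted p = 0.00396). Within each of these 3 tables the Dicer-deficient libraries lay wholly below the controls for Tlr1. The tables were scaled separately, so the levels are not compared between them.

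Tlr4 went the opposite way in the same libraries. Untreated adult brain had 764.4, 764.5 and 825.1 normalised counts of Tlr4 in Dicer-deficient libraries, against 529.6, 438.6, 563.9 and 513.6 in controls, and Tlr4 rose 1.54-fold (0.62 ± 0.16, adjusted p = 0.0317). The call was lost when any 1 of the 7 libraries was left out (adjusted p from 0.0506 to 0.0927), although the difference stayed between 0.55 and 0.67. Total brain at steady state had 359.6, 298.6 and 475.9 in Dicer-deficient libraries, against 187.2, 222.9 and 189.5 in controls (0.89 ± 0.25, adjusted p = 0.0748). It was called by DESeq2 (adjusted p = 0.0111) and in a fit to the compared groups alone (adjusted p = 0.0352). Hippocampus at steady state had 324.5, 499.5 and 464.2, against 235.2 and 273.9 (0.73 ± 0.36, adjusted p = 0.511). In all 3 tables the Dicer-deficient libraries lay wholly above the controls for Tlr4. For Tlr1 and Tlr4 alike, the share of all genes that separate in this way was not counted.

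**Figure D3:**
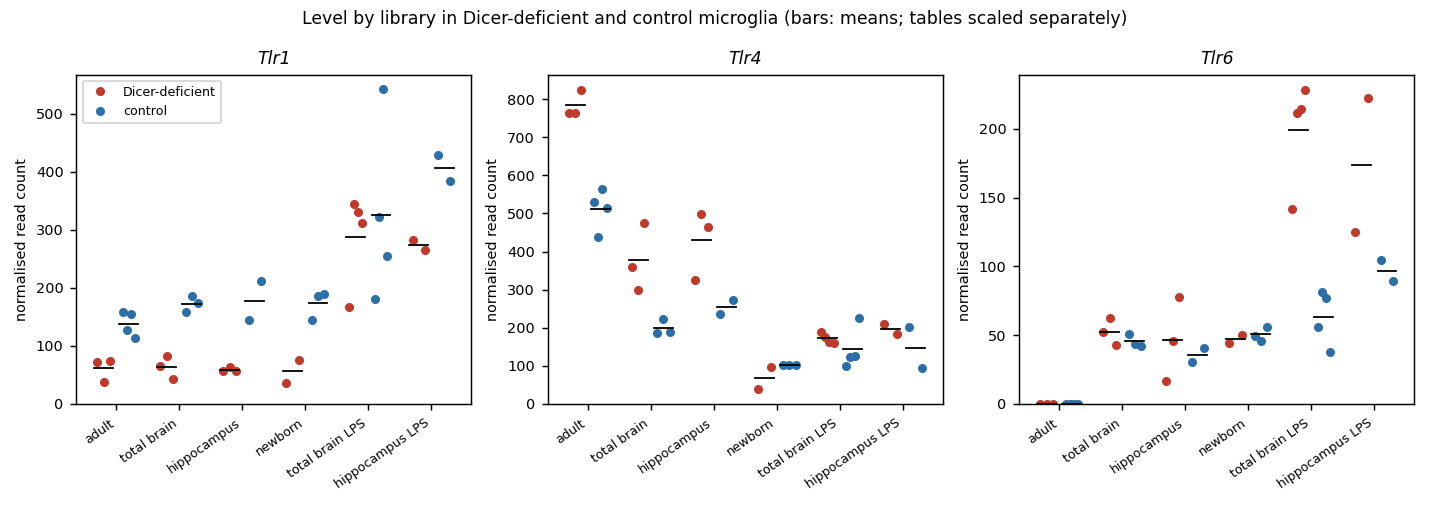
Normalised counts of Tlr1, Tlr4 and Tlr6 per library in the adult, total-brain, hippocampal and newborn libraries, Dicer-deficient points left of control points in each pair and a bar at each mean. Without LPS, Tlr1 is lower in Dicer-deficient libraries of every pair, Tlr4 is higher in the adult pairs and lower at birth, and Tlr6, listed at 0 in the adult table, separates in the LPS pairs.

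Tlr7 was the other member called in untreated adult brain, beside Tlr4. It had 1461.4, 1930.6 and 1256.1 in Dicer-deficient libraries, against 2440.2, 2288.8, 2733.5 and 2300.7 in controls, and fell to 0.626 of the control level (-0.67 ± 0.16, adjusted p = 0.0177). Leaving out Dicer-deficient library 1 or 3, or control 1 or 3, lost the call (adjusted p from 0.0523 to 0.0773). In total brain at steady state Tlr7 overlapped between the groups (-0.48 ± 0.32, adjusted p = 0.493), and in hippocampus it had 691.2, 982.9 and 843.4 in Dicer-deficient libraries, against 1219.6 and 1278.9 in controls (-0.59 ± 0.43, adjusted p = 0.669). The adult table has no row for Xist. Ddx3y, a gene of the Y chromosome, ranged there from 57.0 to 1297.4 in Dicer-deficient libraries and from 16.1 to 895.9 in controls. Both groups may therefore mix the sexes, and the part of sex in the Tlr7 difference was not tested.

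The remaining members were not called at rest. Cd14 had 2259.5, 3166.2 and 2211.0 in Dicer-deficient adult libraries, against 2024.4, 2863.0, 2142.8 and 2516.4 in controls, with differences of 0.09 ± 0.17 in that table, 0.04 ± 0.39 in total brain and -0.21 ± 0.25 in hippocampus. Tlr2 was below controls in all 3 tables by 0.44 ± 0.27, 0.69 ± 0.41 and 0.19 ± 0.27 on the log2 scale, within the spread of the libraries. Tlr13 differed by 0.12 ± 0.14 in adult brain and Myd88 by 0.14 ± 0.17, and Tlr3 by -0.23 ± 0.31. Tlr9 was carried by 0 to 3 reads per adult library and gives no comparison there. In untreated adult brain 1 of the 9 tested members rose and 1 fell, against 5.15% of all genes called. In total brain at steady state 1 of the 10 fell, against 2.18% called. In hippocampus at steady state limma called none of the 10, against 0.17% called, with 1 at an unadjusted p under 0.05, none by edgeR and 1 by DESeq2, in each case Tlr1. Over all genes DESeq2 called 212 there, where limma called 21. Monocyte and neutrophil marker sums were 38.61 to 528.4 in Dicer-deficient and 53.7 to 316.8 in control adult libraries, 22.3 to 406.2 and 15.1 to 43.6 in total brain, and 7971 to 8172 and 529.3 to 2564 in hippocampus. Their part in the differences was not tested.

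**Figure D4:**
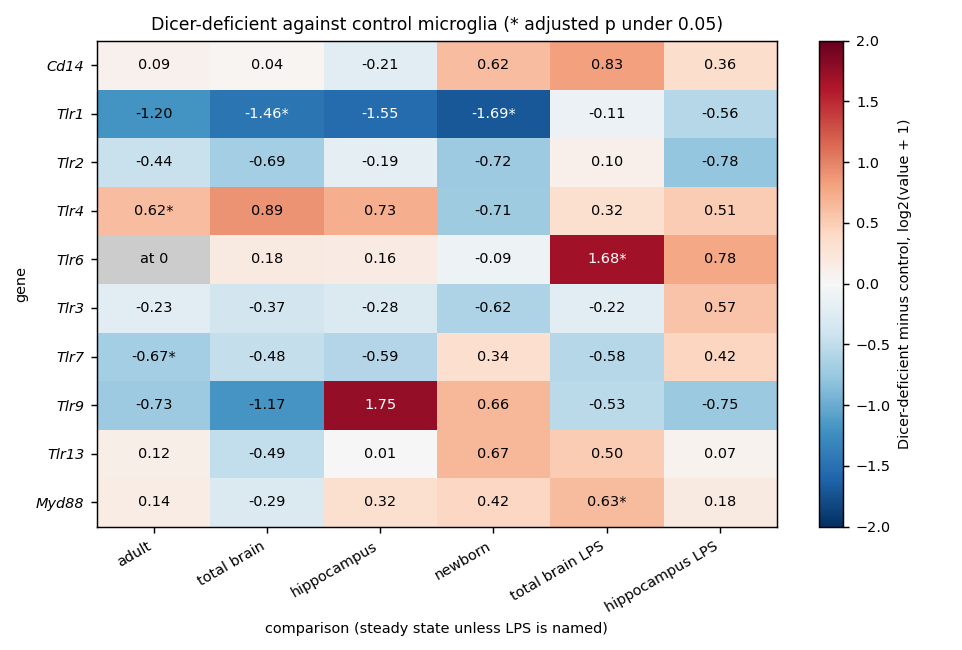
Log2(value + 1) difference, Dicer-deficient minus control, for each of the 10 genes (rows) in the 6 Dicer comparisons (columns, steady state unless LPS is named), with the value printed in each cell and an asterisk where called. Tlr1 is negative in every comparison and lowest without LPS, Tlr4 is positive in the 5 adult comparisons and negative at birth, and Tlr6 reaches 1.68 after LPS in total brain.

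After LPS, Tlr6 was the member that separated the genotypes in total brain. Its 141.7, 211.8, 214.6 and 228.1 normalised counts in Dicer-deficient libraries compare with 55.7, 81.3, 77.2 and 37.6 in controls, with a wide gap between the groups. The rise was 1.68 ± 0.25, or 3.21-fold (adjusted p = 0.000616), and it was called under all 16 alternatives with differences from 1.46 to 1.84. The Tlr6 difference was called as well without control replicate 33, and DESeq2, edgeR and limma all called it. In LPS-treated hippocampus Tlr6 had 124.9 and 222.7 in Dicer-deficient libraries, against 104.4 and 89.5 in controls, without overlap but not called (0.78 ± 0.72, adjusted p = 0.9).

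Myd88 was 1.54-fold higher in Dicer-deficient total brain after LPS, 526.7 to 591.4 against 246.6 to 528.5 in controls, groups that overlap by a small margin (0.63 ± 0.19, adjusted p = 0.0441). That call was lost in 10 of 16 alternatives, among them leaving out control replicate 33 (0.43, adjusted p = 0.0871). Cd14 had 6458.5 to 9380.2 in Dicer-deficient libraries, against 1646.0 to 7722.3 in controls (0.83 ± 0.34, adjusted p = 0.144), and without replicate 33 the difference was 0.35. Tlr13 (0.50 ± 0.22, adjusted p = 0.179) and Tlr7 (-0.58 ± 0.27, adjusted p = 0.208) were not called. Tlr1 and Tlr4, which stood apart at rest, overlapped after LPS in total brain (-0.11 ± 0.30 and 0.32 ± 0.22). Of the 10 members 2 rose and none fell, against 9.4% of all genes called. In hippocampus after LPS limma called none of the 10, against 0.307% called, with 1 at an unadjusted p under 0.05 (Tlr2, -0.78 ± 0.29, adjusted p = 0.444) and none by edgeR or DESeq2. Tlr1 in LPS-treated hippocampus had 283.2 and 265.7 in Dicer-deficient libraries, against 429.9 and 384.0 in controls, with no overlap but no call (-0.56 ± 0.36, adjusted p = 0.773). The hippocampal interaction of LPS and Dicer loss called 0.0162% of genes and none of the members, with none at an unadjusted p under 0.05 and none by edgeR or DESeq2. Of 14 tested monocyte and neutrophil markers 4 were higher in Dicer-deficient total brain after LPS (sums of 676.3 to 3847, against 146.6 to 3985), and their part in the Tlr6 and Myd88 differences was not tested.

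Hippocampus and total brain were deposited as separately normalised tables, so their levels are set side by side as CPM of recovered reads (each library scaled to the same total), with no test. Cd14 averaged 3761 ± 911.8 CPM in LPS-treated Dicer-deficient hippocampus (SD, n = 2) and 3212 ± 505 in total brain (n = 4), and 3053 ± 145.3 and 2124 ± 1053 in LPS-treated controls (n = 2 and 4). At steady state Cd14 averaged 546.8 ± 62.6 in hippocampus and 625.3 ± 106.2 in total brain of Dicer-deficient mice (n = 3 each). In steady-state controls it averaged 649.6 ± 228.3 and 591.9 ± 65.8 (n = 2 and 3), all within each other's spread. Tlr7 averaged 479.9 ± 13.4 in steady-state control hippocampus and 253.2 ± 14.5 in total brain (SD, n = 2 and 3), and these libraries did not overlap. Tlr3 averaged 91.7 ± 32.5 and 43.7 ± 13.4 in the same groups. The share of all genes whose libraries separate as those of Tlr7 did was not counted. Tlr7 is X-linked, and normalised counts of Xist were 3.9 and 1429.4 in these hippocampal controls and 0.0 to 1.7 in these total-brain controls. Region, table and library batch cannot be told apart in these values, and the part of sex was not tested.

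Across development of Dicerfl/fl control microglia, Cd14 climbed at each step. Normalised counts of Cd14 were 150.9, 134.2, 140.4 and 131.2 at E14, 258.8, 301.8, 373.2, 316.8 and 316.4 at P0, and 1441.5, 2072.0, 1013.9, 1140.7 and 1049.2 in adults. No stage overlapped with another. The rise was 1.16 ± 0.18 at P0 relative to E14 (adjusted p = 0.000108) and 2.05 ± 0.17 in adults relative to P0 (adjusted p = 2.75e-09), and adults had 9.25 times the E14 level.

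Of the surface receptors, Tlr1 and Tlr2 were not called between stages. Tlr1 averaged 160.5 ± 15.9 at E14, 173.4 ± 31.8 at P0 and 152.8 ± 24.4 in adults (SD, n = 4, 5 and 5), and Tlr2 269.3 ± 22.7, 283.6 ± 79.6 and 286.8 ± 22.7. Tlr6, the other partner of TLR2, had 22.1, 21.8, 27.5 and 25.9 at E14, 49.4, 46.0, 56.2, 57.8 and 46.7 at P0, and 78.2, 58.8, 54.4, 39.6 and 35.3 in adults. It rose at P0 relative to E14 (1.04 ± 0.22, adjusted p = 0.00177), and P0 and adult libraries overlapped (0.00 ± 0.21). Tlr4 was lowest at birth, with 166.1, 99.3, 154.6 and 182.5 at E14, 101.8, 102.7, 101.1, 110.9 and 61.9 at P0, and 208.2, 171.1, 246.8, 238.7 and 241.9 in adults. Only the adult rise over P0 was firm for Tlr4 (1.22 ± 0.22, adjusted p = 0.000127). The P0 level was not called against E14 (-0.64 ± 0.23, adjusted p = 0.0524), and the adult rise over E14 (0.57 ± 0.23, adjusted p = 0.0449) was lost in 10 of 18 alternatives, among them leaving out any 1 of E14 library 1, 2 or 3 or adult library 1, 3, 4 or 5 (adjusted p from 0.052 to 0.192).

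The endosomal receptors rose toward adulthood at different steps. Tlr7 averaged 198.2 ± 15.4 at E14, 388.8 ± 35.4 at P0 and 557.4 ± 114 in adults, and rose at both steps (0.97 ± 0.18, adjusted p = 0.000834, and 0.50 ± 0.17, adjusted p = 0.024). The second Tlr7 step was lost without adult library 1 (adjusted p = 0.0782) or P0 library 4 (adjusted p = 0.0555). Tlr13 stayed at 218.3 ± 17.2 and 227.0 ± 64.9 at E14 and P0 and reached 481.9 ± 45.9 in adults (1.12 ± 0.17 over P0, adjusted p = 1.3e-05). Tlr3 followed the same course, with 10.9 to 31.3 at E14, 18.9 to 30.4 at P0 and 39.5, 46.5, 127.7, 122.9 and 114.9 in adults (1.75 ± 0.34 over P0, adjusted p = 0.00027). The adult libraries for Tlr3 fell into a lower pair (1 and 2) and a higher trio (3, 4 and 5). Tlr9 was carried by 1 to 12 reads per library, and its adult rise over E14 (1.22 ± 0.43, adjusted p = 0.0212) was lost without adult library 1 (adjusted p = 0.06) or E14 library 1 (adjusted p = 0.0813).

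Myd88 dipped at birth. It had 277.8, 214.3, 264.6 and 248.1 at E14, 152.7, 144.4, 161.1, 195.3 and 188.0 at P0, and 238.3, 279.0, 203.6, 207.2 and 228.8 in adults, so that every P0 library lay below every other. The fall at P0 was 0.58 ± 0.14 on the log2 scale (adjusted p = 0.00648) and the adult rise over P0 0.46 ± 0.14 (adjusted p = 0.00927), while adult and E14 levels overlapped. At P0 relative to E14 3 of the 10 members rose and 1 fell, against 22.7% of all genes called. In adults 6 of 10 rose relative to P0, against 43.2%, and 7 of 10 relative to E14, against 51.3%, and none fell. With about 1 gene in 2 called over the whole span, these shares lie near the background except in direction: the members' median was 1.09 relative to E14, where the median of all genes was -0.13. Summed microglial markers were 24550 to 28860 at E14, 28540 to 38830 at P0 and 53760 to 66410 in adults, and border macrophage markers 514 to 797.2, 802.2 to 1101 and 20.18 to 81.26. Monocyte and neutrophil markers summed to 124.3 to 186.3 at E14, 75.6 to 385.4 at P0 and 30.47 to 1474 in adults. Their part in the stage differences was not tested.

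**Figure D5:**
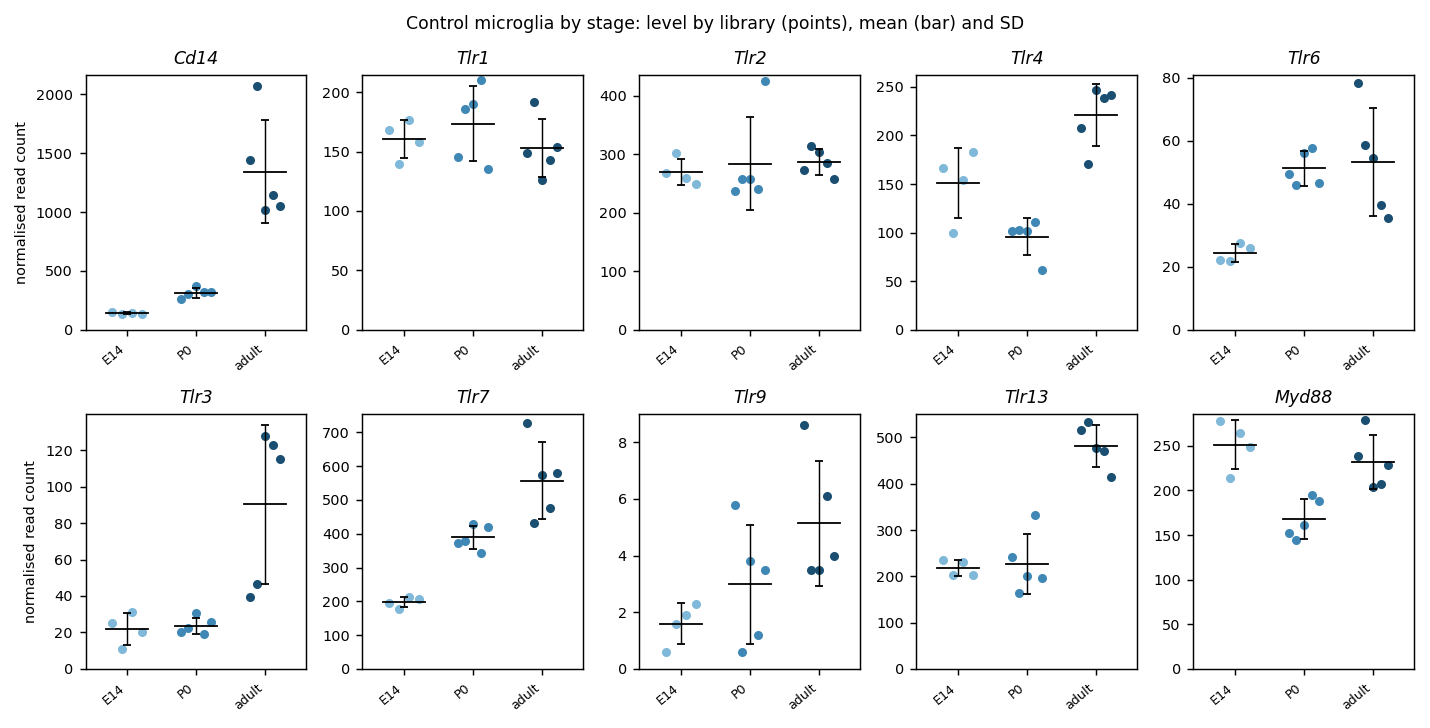
Normalised counts of each of the 10 genes at E14, P0 and adult in control libraries, with a point per library, a bar at the group mean and an SD whisker. Cd14 is higher at each stage and reaches 1013.9 to 2072.0 in adults, Myd88 and Tlr4 have their lowest means at P0, and the Tlr1 and Tlr2 libraries overlap across stages.

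In newborn microglia Tlr1 was again the member that fell with Dicer loss. It had 36.4 and 76.1 normalised counts in the 2 Dicer-deficient libraries, against 145.4, 185.4 and 190.0 in the 3 controls of that comparison (-1.69 ± 0.35, adjusted p = 0.0491). The call was lost without any 1 of the 3 controls (adjusted p from 0.249 to 0.393) and held with all 5 newborn controls (-1.68, adjusted p = 0.00439). Tlr2 had 150.8 and 152.2, against 237.0, 257.6 and 257.7 (-0.72 ± 0.25, adjusted p = 0.157), and was called with all 5 controls (-0.86, adjusted p = 0.0486). Over all genes the fit with 5 controls called 1120, against 194 with 3. Tlr4 had 39.0 and 97.1 in Dicer-deficient newborns, against 101.8, 102.7 and 101.1 in controls, so that it lay below them here (adjusted p = 0.311), where it lay above controls in adults. The difference between those ages was not tested, since the tables, alleles and Cre lines differ. Cd14 had 504.3 and 442.4, against 258.8, 301.8 and 373.2 (0.62 ± 0.27, adjusted p = 0.232), and Tlr13 254.8 and 398.0, against 242.8, 163.7 and 200.7 (0.67 ± 0.30, adjusted p = 0.242). Myd88 had 223.6 and 186.1, against 152.7, 144.4 and 161.1 (0.42 ± 0.26, adjusted p = 0.371). Tlr6, Tlr7 and Tlr9 differed by less than their spread. Of the 10 members 1 fell and none rose, against 1.48% of all genes called. Without Dicer-deficient library 1, Tlr7 differed by 0.88 and Tlr13 by 0.99. Without library 2 the differences were -1.36 for Tlr4, -0.73 for Tlr2 and 0.71 for Cd14. Each of these fits has 1 Dicer-deficient library, whose spread is assumed to equal that of the controls, so no calls are read from them. The 2 libraries lay apart for Tlr7 (340.5 and 725.7) and Tlr4, and Cx3cr1 was 647.3 in the first and 3128.7 in the second.

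The pathway around the receptors responded to LPS in both genotypes. Of 19 tested early target genes, all 19 rose in Dicer-deficient total brain (median 3.53) and 15 in controls (median 3.20), and in hippocampus 11 and 8 of 19 rose. The strongest by p were the interleukin Il1b (6.26 ± 0.55), the co-stimulatory receptor Cd40 (6.55 ± 0.64) and the cytokine Tnf (4.46 ± 0.53) in Dicer-deficient total brain. In controls they were Ptgs2, which makes prostaglandin precursors (3.20 ± 0.45), Il1b (3.75 ± 0.55) and Tnf (3.25 ± 0.53). Of 18 negative regulators 11 rose and 1 fell in Dicer-deficient total brain, and 7 rose in controls, among them the NF-kB inhibitor Nfkbia (2.18 ± 0.28 and 1.22 ± 0.28) and the deubiquitinase Tnfaip3 (3.13 ± 0.29 and 1.31 ± 0.29). Of 14 transcription factors 8 rose and 2 fell in Dicer-deficient total brain, and 2 rose and 3 fell in controls. Of 12 genes for trafficking and cleavage of endosomal receptors none rose and 3 fell in Dicer-deficient total brain, and none rose and 1 fell in controls. These were the lysosomal nucleoside transporter Slc29a3 in both (-1.77 ± 0.27 in Dicer-deficient, -1.05 ± 0.27 in control libraries), and the protease Lgmn (-1.10 ± 0.25) and the lysosomal transporter Slc15a4 (-1.06 ± 0.26) in Dicer-deficient libraries. Over all genes 24.9% were called in Dicer-deficient and 14.1% in control total brain, so the endosomal counts lie near or below the background. The total-brain control values of these lists include replicate 33 and were not refitted without it.

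Where Dicer loss after LPS raised Tlr6 and Myd88 in total brain, the pathway lists gave the following counts. Of 19 early targets 4 rose and none fell, of 18 negative regulators 5 rose and none fell, of 14 transcription factors 2 rose and 2 fell, and of 25 adaptors and proximal kinases 2 rose and 2 fell, where 9.4% of all genes were called in either direction. The leading early targets were Il1b (2.72 ± 0.51), Cd40 (3.10 ± 0.59) and Nos2, the inducible nitric oxide synthase (2.57 ± 0.54). Nos2 was scarce, at 7.1 to 12.6 normalised counts in Dicer-deficient and 0 to 4.1 in control libraries. Among transcription factors, the non-canonical NF-kB subunits Nfkb2 (1.85 ± 0.21, adjusted p = 4.47e-05) and Relb (1.70 ± 0.25, adjusted p = 0.000586) rose and Irf8, an interferon regulatory factor of macrophages, fell by 0.93 ± 0.20. Nfkb2 (2.22 ± 0.32, adjusted p = 0.00487), Relb (2.27 ± 0.38, adjusted p = 0.0155) and the Tnfaip3-binding protein Tnip1 (1.43 ± 0.24, adjusted p = 0.0155) were also called in the interaction, the 3 genes called in it from all lists. In the endosomal list of 12, Slc29a3 (-1.27 ± 0.25) and Rab7b (-1.75 ± 0.41) fell and the protease Ctsl (0.87 ± 0.25), which cleaves endosomal receptors, rose. The medians were 0.47 for early targets and 0.50 for negative regulators, against -0.10 over all genes. Control replicate 33 is among the libraries of these comparisons, and the pathway lists were not refitted without it. Among the members, the Cd14 difference after LPS went from 0.83 to 0.35 without that library. Its part in the list values was not tested.

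In untreated adult brain, where 5.15% of all genes were called, none of 16 early targets rose and 2 fell, none of 16 negative regulators rose and 1 fell, and of 13 transcription factors 1 rose and 3 fell. Of 25 adaptors and proximal kinases and 10 endosomal genes 1 each rose and none fell. The chemokines Ccl3 (-2.31 ± 0.19) and Ccl4 (-1.70 ± 0.27) fell, as did the NF-kB cofactor Nfkbiz (-1.21 ± 0.29) and the early transcription factors Atf3, Jun and Fos. Ctsl (1.23 ± 0.18), the adaptor Tirap, which bridges TLR2 and TLR4 to MYD88 (0.81 ± 0.18), and Nfkb1 (0.57 ± 0.16) rose. In total brain at steady state 1 gene was called in each of these lists but the adaptors, which had none, and 2.18% of all genes were called. There Ccl3 (-1.77 ± 0.43), Nfkbiz (-1.95 ± 0.40) and Jun (-1.57 ± 0.35) fell and Ctsl rose (1.35 ± 0.29), and Ctsl also rose in hippocampus (1.23 ± 0.21), the 1 pathway gene called there, where 0.17% of all genes were called. In Dicer-deficient newborns, where 1.48% of all genes were called, the called pathway genes were Peli2, an ubiquitin ligase that acts on IRAK (1.71 ± 0.30), Ccl2 (1.87 ± 0.34), the LPS-binding protein gene Lbp (5.54 ± 0.57) and Cebpb, a transcription factor of macrophages (2.00 ± 0.34), all higher. Lbp had 223.6 and 357.0 normalised counts in the Dicer-deficient libraries and 1.9 to 202.4 over all 5 newborn controls, so that its level was high in 1 control outside the comparison.

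For each member measured in all 4 tables, the genes with the most similar pattern over 14 group means were found among 10407 genes by the root mean square difference of centred log2(value + 1). Nearest to Tlr4 were Hnrnph3 (0.147), Pak1 (0.182) and Neurl3 (0.19), and nearest to Tlr1 were Tes (0.309), Slx4ip (0.338) and Xaf1 (0.362). Tlr2 was nearest to Madcam1 (0.312), Grwd1 (0.319) and Mthfd2 (0.349), and Cd14 to Smim3 (0.457), Tns1 (0.459) and Il15ra (0.467), the loosest match of the 9. Myd88 was nearest to Pak1ip1 (0.16), Fyb (0.173) and Ddx24 (0.178), and Tlr7 to Rrbp1 (0.212), C1qb (0.217) and Herpud1 (0.221). Tlr13 was nearest to Trim21 (0.184), Synj1 (0.184) and Kmt2d (0.185), and Tlr3 to Mapk1ip1 (0.188), Glrp1 (0.22) and Lpcat2 (0.225). Tlr9 was nearest to Klhl28 (0.342), Morn1 (0.344) and H2-T24 (0.366). These likenesses describe group means only.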

How the data were processed

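RNA-seq of sorted mouse microglia was read from 4 deposited tables. The values are a signal: counts that the authors divided by 1 factor per library before they deposited them, as the values show, since multiples of 1 step give whole reads. Reads were mapped to mm9 with HISAT 0.1.5, and HOMER and DESeq2 are named, per the submitters' processing notes; the counting settings are not given in the sources used here. Samples were grouped by their labels. log2(value + 1) was fitted with limma 3.58.1 (R 4.3.3, trended variance, two-sided tests), 1 model per table and 1 for the newborn comparison, keeping genes that reached 1 normalised count in a number of libraries equal to the smaller of the groups compared. P-values were adjusted by Benjamini-Hochberg over all genes tested. Recovered reads went to edgeR 4.0.16 and DESeq2 1.42.0 as alternatives. Other alternatives were the pseudocount, no filter, the compared groups alone, Xist as a covariate, a replicate block and leaving out each library. The limma fit was tested on simulated data with the same spread setting for all genes. The comparisons of Dicer loss after LPS and the interactions were not simulated. The members, gene lists and tests were chosen with earlier results of these data known. All 10 members are named, along with up to 3 genes per list by smallest p and the 3 genes of nearest pattern per member. Sequences came from RefSeq and GENCODE on GRCm38, not the build of the reads.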

Additional observations from a re-analysis of the deposited data

Results flagged for a closer look

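Of 59 sets of 4 or 5 libraries of 1 gene and group, 4 held a library far from the rest, where chance gives about 1 in 20. Tlr7 was lowest, at 699.2, in LPS-treated control total-brain library 33. Myd88 was lowest, at 526.7, in LPS-treated Dicer-deficient total-brain library 38. In newborn control library 5, Tlr2 was highest, at 425.0, and Tlr4 was lowest, at 61.9; that library is outside the newborn Dicer comparison of 3 controls.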

How the results depend on the processing

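Of 2286 alternative values, 2203 kept their side of the threshold, 52 lost a call and 31 gained one, and no called difference changed sign. Differences that were not called could change sign, as Tlr3 did for adult Dicer loss (-0.59 to 0.20). The cause of these changes was not tested. DESeq2 called 4 members (2 in the main test) for LPS in controls in total brain and in hippocampus, 5 (3) for LPS in Dicer-deficient hippocampus, 2 (1) for Dicer loss in total brain at steady state, and 1 (0) for its interaction and for Dicer loss in hippocampus at steady state. Over all genes DESeq2 called more than the main test in each of these comparisons. In that order the gene counts were 2132 (1897), 1087 (647), 1526 (1048), 562 (292), 164 (23) and 212 (21). EdgeR with TMM or RLE called 0 for Dicer loss in total brain at steady state. A fit to the compared groups alone called 1 for LPS in total-brain controls, 2 for Dicer loss at steady state and 1 after LPS, where no filter and the Xist covariate also gave 1. The newborn comparison gave 0 with a pseudocount of 0.1 and 2 with all 5 controls. Leaving out single libraries gave 0 to 1 for adult Dicer loss, 2 to 4 and 7 for LPS in control and Dicer-deficient total brain, 0 to 1 and 1 to 2 for Dicer loss there at steady state and after LPS, and 0 for the interaction. It gave 2 and 3 to 4 for LPS in control and Dicer-deficient hippocampus, 0 for Dicer loss and interaction there, 4 to 5, 5 to 6 and 5 to 7 for P0 against E14, adult against P0 and adult against E14, and 0 to 4 for newborn Dicer loss, where leaving out a Dicer-deficient library leaves 1, which is then assumed to vary as the controls do; the same holds for groups of 2 in hippocampus, each left with 1 library assumed to vary like the other groups. With a replicate block the adult Dicer comparison called 0 members (2 without), and the Tlr1 fall in newborns was -1.62 (adjusted p = 0.00472). Same-numbered libraries correlated by -0.014 to -0.001 in the adult table, 0.054 to 0.087 among newborns and -0.207 to 0.078 between stages, so the numbers do not pair the libraries. Xist has no row in the adult table, so that covariate was not run there. Tlr9 is limited by its depth, 0 to 92 reads per library.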

Other observations

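Among 10 related receptors and co-receptors outside the members, Tlr12, which with TLR11 detects profilin of parasites in mice, was called in several comparisons. It averaged 51.9 normalised counts after LPS, against 399.8 at steady state, in Dicer-deficient total brain, and fell by 2.84 ± 0.44 on the log2 scale (limma, adjusted p = 0.000189). In controls Tlr12 averaged 70.8 after LPS, against 187.5 at steady state, and fell by 1.72 ± 0.44 (adjusted p = 0.0162). Tlr12 also fell with LPS in control hippocampus, by 3.66 ± 0.94 (adjusted p = 0.0432). Across stages Tlr12 averaged 29.0 at E14, 14.7 at P0 and 171.6 in adults, a rise of 3.55 ± 0.29 from P0 (adjusted p = 3.53e-09). Without LPS, Tlr12 averaged 958.6 in Dicer-deficient and 421.4 in control adult brain, 399.8 and 187.5 in total brain, and 387.7 and 167.5 in hippocampus, with no call.

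Tlr8 was scarce at every stage, averaging 8.35 at E14 (1.6 to 11.4), 2.08 at P0 (0 to 3.8) and 0 in all 5 adult libraries, and fell at P0 relative to E14 (-1.56 ± 0.53, adjusted p = 0.0396). Cd36, a scavenger receptor that cooperates with TLR2 and TLR6, fell by 3.09 ± 0.49 on the log2 scale in adults relative to E14 (adjusted p = 2.17e-05). The chaperone Unc93b1, which carries endosomal receptors out of the endoplasmic reticulum, rose by 0.61 ± 0.17 at P0 (adjusted p = 0.0161) and by 1.20 ± 0.17 in adults relative to E14 (adjusted p = 7.12e-06).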
